A study of Mus musculus with 69 samples.

Results

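Exon 4 of Ica1l split the HSNpt mice of this study. HSNpt is the heterogeneous stock behind the HDID1 line, whose breeders were picked, generation after generation, for a high blood ethanol level reached in a drinking-in-the-dark test. Among 34 HSNpt mice, 8 had no read on this exon and 26 had at least 2. The mice were selected on measured values, namely their own read counts on the exon, so the exon and the rest of Ica1l are described here without a test. The question was whether other transcripts in the same brain tissue moved with the exon, near it on chromosome 1 or elsewhere.

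The 8 HSNpt mice at 0 were 5 females and 3 males. All 35 HDID1 mice, 17 females and 18 males, were at 0 too. The 26 HSNpt mice with reads were 12 females and 14 males. Sex did not differ between the HSNpt classes beyond counting error (Fisher's exact test, two-sided, p = 0.688). No genotype other than the line is given for any mouse, and the labels give no age. Both lines had the same treatment: a drinking trial of 4 days with a single bottle of 20% ethanol, open for 2 h on the early days and 4 h on the last, beginning 3 h after lights off. Blood was taken when the last session ended, and the ventral striatum was dissected by hand from a 2 mm coronal slice 3 weeks later. Poly-A RNA was sequenced from 1 stranded library per mouse. Since no HDID1 mouse had a read on the exon, the comparison could not be repeated within HDID1, nor could its effect be set between the lines.

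Ica1l encodes a relative of ICA69, the islet cell autoantigen encoded by Ica1. Proteins of this family carry a curved, membrane-binding domain of the BAR and arfaptin type, and they pair with PICK1, a BAR domain protein that handles AMPA receptors and dense core vesicles. A gene can carry an internal last exon with its own polyadenylation signal: a transcript that uses it stops there, and a transcript that splices past it goes on to the downstream exons.

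Exon 4 is an exon of that kind. It holds 594 bases and lies on the minus strand of chromosome 1 (mm10), between exon 3 at chr1:60022578-60022650 and exon 5 at chr1:60015255-60015835. In GENCODE M21 it belongs to 1 of the 6 transcripts of Ica1l, Ica1l-203, where it is the last of 4 exons in 951 bases. The reading frame from the first ATG of that transcript runs for 110 codons and ends 95 bases into exon 4. The polyadenylation hexamer AATAAA occurs 2 times in the exon, 165 and 11 bases before its end. The sequences shown are the end of exon 3, where the paths part, and both ends of exon 4. Capitals mark the hexamer, and each sequence is read from the GENCODE transcript in its own direction.
Ica1l exon 3, final 30 bases (chr1:60022578-60022607, minus strand): tagttgagaaataccagctaagactcaacg
Ica1l exon 4, opening 60 bases (chr1, minus strand, from the exon's 5' end down to position 60021325): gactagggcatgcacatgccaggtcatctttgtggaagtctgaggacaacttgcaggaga
Ica1l exon 4, final 30 bases (chr1, minus strand, from position 60020820 down to the exon's 3' end): cttaccacaacaaAATAAAagatgatacgc

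Total counts lay between 14480000 and 22110000 in the mice at 0, between 14770000 and 22150000 in HDID1 and between 14080000 and 35260000 in the mice with reads. HSNpt male replicate 10, a mouse at 0, is labelled male but had 5563 counts on Xist and 8 on the Y-linked gene Ddx3y. HSNpt female replicates 14 and 15, both with reads, are labelled female but had 6 and 4 counts on Xist. HSNpt female replicate 6 and male replicate 11, both with reads, stood apart with low spiny neuron marker levels. The ventral striatum label was matched by its spiny neuron markers, such as Ppp1r1b, Pde10a and Rgs9, whose 14 genes summed to at least 2944 CPM in every HSNpt library.

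The exon was scarce even in the mice that had it. The 26 mice with reads had between 2 and 23 counts on it, with a median of 11.5 and 328 in all. Scaled to library size this was 0.661 ± 0.335 CPM (counts scaled to library size; SD, n = 26), from 0.151 to 1.5. It made up 1.04% of all their Ica1l counts, and between 0.244% and 2.52% in single mice. Just inside the class with reads lay HSNpt male replicate 1 with 2 counts, a share of 0.244% (exact Clopper-Pearson 95% interval 0.0295% to 0.877%), and next to it HSNpt female replicate 3 with 5 counts. The 8 mice at 0 had between 991 and 1427 counts on Ica1l as a whole. A 0 there allows a share of at most 0.258% to 0.372% by the same interval, and 3 counts, the limit that a count of 0 allows, are worth 0.136 to 0.212 CPM in those libraries. A mouse with the lowest share seen among the 26 could therefore have been counted as 0. Intervals and limits cover counting error only.

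**Figure D1:**
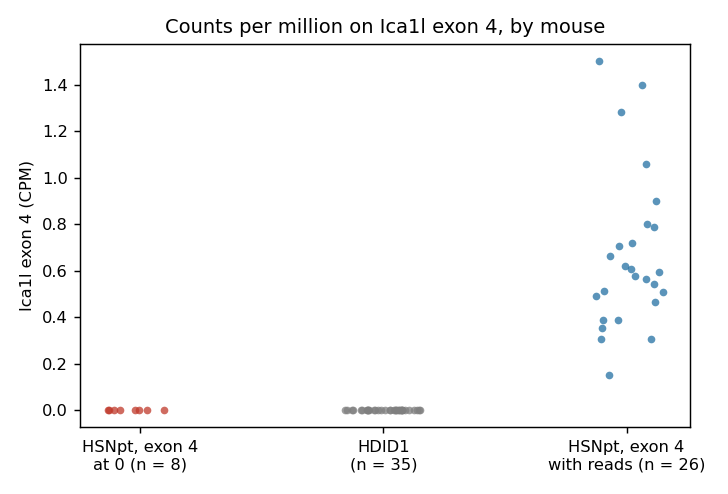
CPM on Ica1l exon 4, 1 point per mouse, for the 8 HSNpt mice at 0, the 35 HDID1 mice and the 26 HSNpt mice with reads. All HDID1 mice sit at 0, and the mice with reads spread from 0.151 to 1.5 CPM.

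No other exon split the mice this way. Of 253821 exons in the deposited table, 1 was at 0 in all 8 mice and present in all 26, and that was the exon that defined the classes. The classes did not coincide with the lab numbers in the file headers, whose meaning is not stated. A link between them was not tested. HSNpt female replicates 1, 2, 4 and 5, at 0, and replicate 3, with reads, carried the neighbouring numbers 26.1 to 28.2. The 34 HSNpt mice carried 18 such numbers, of which 7 included a mouse at 0, and 4 of these also included a mouse with reads.

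Elsewhere in Ica1l, the exons downstream of exon 4 were higher in the mice at 0, and the exons upstream were not. The summed level of exons 5 to 13, which belong to coding transcripts, was 55.7 ± 6.15 CPM in the 8 HSNpt mice at 0 (lowest 47.01, median 57.2, highest 63.8). It was 52.7 ± 5.36 CPM in the 35 HDID1 mice (lowest 38.1, median 52.8, highest 65.1) and 44.6 ± 5.16 CPM in the 26 HSNpt mice with reads (lowest 35.2, median 44.5, highest 55.9). All 8 mice at 0 and 32 of 35 HDID1 mice lay above the median of the mice with reads, and 5 of 8 and 9 of 35 lay above their highest value, so the classes overlapped. On the log2 scale the means differed from that of the mice with reads by 0.32 for the mice at 0 and by 0.24 for HDID1.

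Upstream, the means differed by less than the SD between mice. Exons 1 to 3 summed to 6.65 ± 0.900 CPM in the mice at 0, 6.27 ± 1.51 CPM in HDID1 and 6.99 ± 1.20 CPM in the mice with reads, and 3 of 8 mice at 0 were above the median of the mice with reads. The ratio of downstream to upstream levels within a mouse was 8.48 ± 1.22 in the mice at 0, 9.01 ± 2.84 in HDID1 and 6.53 ± 1.16 in the mice with reads. In 8 of 8 mice at 0 and 34 of 35 HDID1 mice it was above the median of the mice with reads.

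**Figure D2:**
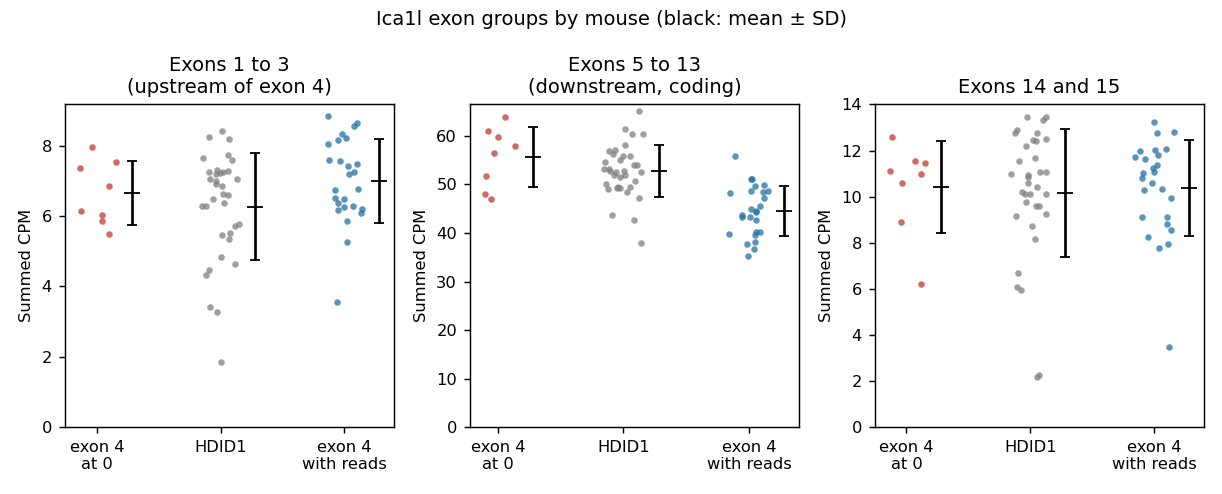
Summed CPM of 3 groups of Ica1l exons per mouse, for HSNpt mice with exon 4 at 0 (n = 8), HDID1 mice (n = 35) and HSNpt mice with reads on it (n = 26), with mean ± SD in black. Only in the middle panel, exons 5 to 13, do all 8 mice at 0 lie above the median of the mice with reads (44.5 CPM).

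Exon by exon, the difference between the HSNpt classes began right after exon 4. Exons 5 to 11 and exon 13 had log2 ratios of 0.25 to 0.35 between the mice at 0 and those with reads. For HDID1 over the mice with reads the ratios were smaller. They were 0.05, 0.13, 0.13, 0.12, 0.22, 0.12 and 0.25 at exons 5 to 11, in that order, and 0.32 at exon 13. Exon 12 was nearly silent, with 5 counts in all in the mice at 0, 14 in HDID1 and 10 in the mice with reads, and its log2 ratio of 1.05 rests on these few counts. Exon 13, the long exon that ends the full-length coding transcript, was at 29.1 ± 3.37 CPM in the mice at 0, 28.7 ± 2.89 CPM in HDID1 and 23.1 ± 2.35 CPM in the mice with reads. All 8 mice at 0 and 34 of 35 HDID1 mice exceeded the median of the mice with reads on it. Exons 14 and 15, which GENCODE places in a non-coding transcript only, did not follow: their sum was 10.4 ± 2.00 CPM in the mice at 0, 10.2 ± 2.77 CPM in HDID1 and 10.4 ± 2.10 CPM in the mice with reads. Across the 34 HSNpt libraries the log2 level of exon 4 had a Pearson correlation of -0.66 with exon 13 and -0.58 with exon 11, and of 0.12 with exon 3. These points share their libraries, and 8 of them sit at 0 on exon 4.

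**Figure D3:**
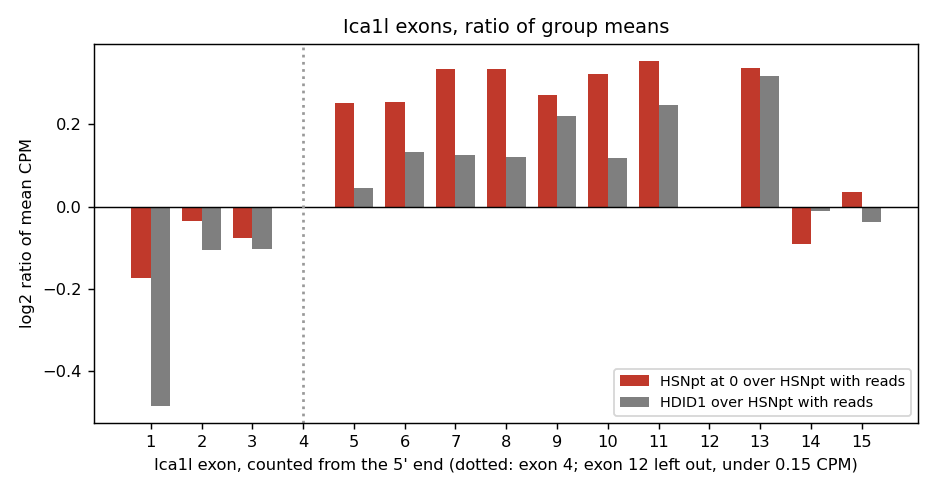
Log2 ratio of mean CPM per Ica1l exon, for the HSNpt mice at 0 (red) and the HDID1 mice (grey), each over the HSNpt mice with reads. Exons 4 and 12 are not drawn. Bars turn positive after exon 4 and return to near 0 at exons 14 and 15.

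All Ica1l exons other than exon 4 summed to 72.8 ± 7.84 CPM in the mice at 0, 69.1 ± 8.37 CPM in HDID1 and 61.97 ± 7.04 CPM in the mice with reads. That is a log2 difference of 0.23 for the mice at 0, with 7 of 8 above the median of the mice with reads. The 3' end of Ica1l overlaps Fam117b on the opposite strand, and whether counting used strand is not known. Fam117b itself had 75.4 ± 8.67 CPM in the mice at 0 and 73.9 ± 8.96 CPM in those with reads. The means of the paralog Ica1 differed between the HSNpt classes by less than their SD, at 43.6 ± 8.38 CPM in the mice at 0, 49.8 ± 8.45 CPM in HDID1 and 43.7 ± 8.16 CPM in the mice with reads.

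No gene outside Ica1l passed the test between the classes. edgeR's quasi-likelihood test with sex as a covariate was fitted to 16752 genes in the 34 HSNpt libraries, and 0 of them (0%) had a Benjamini-Hochberg adjusted p under 0.05. At an unadjusted p under 0.05 there were 591 genes (3.53%), 297 higher and 294 lower in the mice at 0. The DESeq2 Wald test called 2 genes, Xist and its overlapping neighbour Gm27520, and had 671 at an unadjusted p under 0.05. The Xist value rests on the library labelled male that carries Xist reads: the log2 fold change in edgeR's test was 5.83, and 0.0269 without that library. The 95% interval of the log2 fold change lay within 0.5 either way for 11453 genes and within 1 for 15667.

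Close to the exon the share of genes at an unadjusted p under 0.05 was higher than the 3.53% over all genes, on few genes. Within 1 Mb it was 3 of 19 tested genes (15.8%), within 5 Mb 7 of 78 (8.97%), within 10 Mb 9 of 121 (7.44%), and on chromosome 1 as a whole 49 of 1076 (4.55%). On the other chromosomes it was 542 of 15676 (3.46%). Chromosome 17, at 4.72%, had a larger share than chromosome 1. None of these genes passed the adjusted threshold, and neighbouring genes are not independent of each other.

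Of the genes within 1 Mb, Cyp20a1 had the smallest p. It encodes a cytochrome P450 whose substrate is not established, and it starts 322 kb from the exon. It was at 9.87 ± 2.48 CPM in the mice at 0 (lowest 6.66, median 10.5, highest 13.7), 10.5 ± 1.80 CPM in HDID1 (6.90, 10.3 and 14.2) and 12.4 ± 2.20 CPM in the mice with reads (9.50, 12.4 and 18.1). The mice at 0 were mostly low: 7 of 8 lay below the median of the mice with reads, and the ranges overlapped. Its log2 fold change was -0.36 ± 0.11 (SE), with an unadjusted p of 0.0035 and an adjusted p of 0.998 in edgeR's test. Single exons of Cyp20a1 went the same way, 3 of them at an unadjusted p under 0.05 and log2 fold changes of -0.51, -0.49 and -0.47.

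Fzd7, a Wnt receptor of the Frizzled family 534 kb away, was at 9.89 ± 1.99 CPM in the mice at 0 (lowest 7.10, median 9.597, highest 12.6), 9.68 ± 2.09 CPM in HDID1 (4.85, 9.17 and 14.04) and 7.85 ± 1.93 CPM in the mice with reads (3.53, 8.10 and 12.5). Here 7 of 8 mice at 0 were above the median of the mice with reads. The log2 fold change was 0.35 ± 0.15 (SE; edgeR, unadjusted p = 0.023, adjusted p = 0.998). Cdk15, a cyclin-dependent kinase gene 668 kb away and barely expressed, averaged 0.722 ± 0.359 CPM in the mice at 0, 0.506 ± 0.298 CPM in HDID1 and 0.449 ± 0.227 CPM in the mice with reads, with 6 of 8 mice at 0 above the median of the mice with reads.

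The other 16 genes within 1 Mb had unadjusted p-values of 0.05 or above. Nearest were Fam117b at 35.4 kb, with a log2 fold change of 0.03 (95% interval -0.12 to 0.19), Wdr12 at 48.4 kb, a ribosome assembly factor, with 0.03 (-0.11 to 0.18), and Carf at 76.9 kb, a calcium-responsive transcription factor, with 0.21 (-0.06 to 0.48). Bmpr2, the type II receptor for bone morphogenetic proteins, had 0.12 (-0.19 to 0.44), and Nbeal1 had 0.12 (-0.35 to 0.58). Abi2, a regulator of actin assembly, had 0.19 (-0.05 to 0.43). Raph1, which encodes lamellipodin, had -0.02 (-0.43 to 0.38). Nop58, a core protein of small nucleolar ribonucleoproteins, had 0.02 (-0.10 to 0.14), and Gm973 had 0.07 (-0.22 to 0.35).

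Tmem237, a protein of the ciliary transition zone, had -0.16 (-0.39 to 0.08), Mpp4 -0.23 (-0.80 to 0.33), Gm29017 -0.09 (-0.34 to 0.16), G730003C15Rik -0.06 (-0.37 to 0.26) and the pseudogene Eif4a-ps4 -0.01 (-0.46 to 0.44). Of the 19 genes, 12 had positive and 7 negative log2 fold changes, with a median of 0.03. Several of these genes overlap a neighbour on the other strand (Tmem237 and Mpp4 with G730003C15Rik, Wdr12 with Carf, and both Gm29017 and Gm973), and their counts are uncertain to that extent.

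Between 1 and 5 Mb, 4 genes had an unadjusted p under 0.05, and they are named here after their values were seen. Clk1, a kinase that phosphorylates splicing factors, was at 103.5 ± 6.82 CPM in the mice at 0 (lowest 93.6, median 101.6, highest 115.7), 97.1 ± 16.1 CPM in HDID1 and 87.0 ± 18.7 CPM in the mice with reads (55.5, 84.2 and 123.3). All 8 mice at 0 lay above the median of the mice with reads and none above their highest value. Its log2 fold change was 0.24 ± 0.11 (SE; edgeR, unadjusted p = 0.042). Aox1, an aldehyde oxidase, averaged 12.1 ± 4.18 CPM in the mice at 0, 10.7 ± 2.97 CPM in HDID1 and 8.23 ± 2.58 CPM in the mice with reads. Ccnyl1 averaged 17.8 ± 3.33 CPM in the mice at 0, 13.6 ± 2.61 CPM in HDID1 and 14.3 ± 2.66 CPM in the mice with reads. Sgol2, a protector of centromeric cohesion, averaged 1.66 ± 0.399 CPM in the mice at 0, 1.35 ± 0.420 CPM in HDID1 and 1.29 ± 0.319 CPM in the mice with reads. All had an adjusted p of 0.998.

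**Figure D4:**
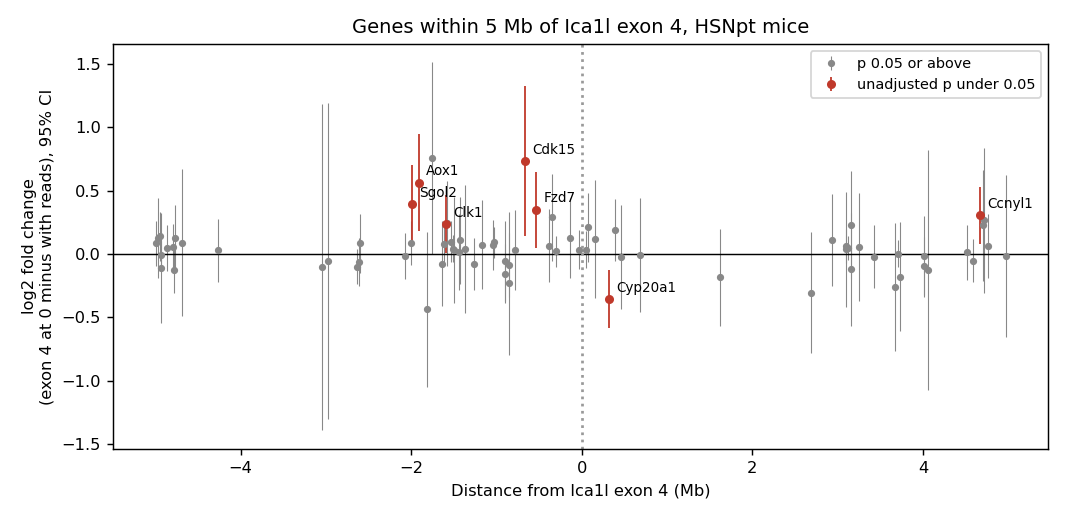
Log2 fold change (HSNpt mice at 0 minus HSNpt mice with reads) with its 95% interval for the 78 genes tested within 5 Mb, by distance from Ica1l exon 4 in Mb. The 7 red genes had an unadjusted p under 0.05, Cyp20a1 below 0 and the other 6 above.

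Outside the region, the genes of smallest p were Xist, Mfsd7a, Tctn2, Hspa1a and Tiparp, none of which passed. Tctn2, a tectonic protein of the ciliary transition zone, was at 23.9 ± 1.29 CPM in the mice at 0 (lowest 22.6, median 23.5, highest 25.9), 28.5 ± 3.19 CPM in HDID1 and 27.6 ± 2.26 CPM in the mice with reads (22.1, 27.9 and 32.1). All 8 mice at 0 lay below the median of the mice with reads, with a log2 fold change of -0.19 ± 0.05 (SE; edgeR, unadjusted p = 0.0007, adjusted p = 0.998). Hspa1a, the inducible heat shock protein, was likewise below that median in 8 of 8 mice, at 1.504 ± 0.363 CPM in the mice at 0, 2.93 ± 1.98 CPM in HDID1 and 2.27 ± 0.587 CPM in the mice with reads. Tiparp, an ADP-ribosyltransferase, averaged 21.4 ± 4.47 CPM in the mice at 0, 21.2 ± 3.44 CPM in HDID1 and 15.7 ± 3.52 CPM in the mice with reads. Mfsd7a averaged 0.293 ± 0.248 CPM in the mice at 0, 0.667 ± 0.320 CPM in HDID1 and 0.708 ± 0.256 CPM in the mice with reads.

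Among 7 pathway lists, 0 members passed, and the immediate early genes held most of the unadjusted ones: 7 of 15 had an unadjusted p under 0.05, against 3.53% of all genes. These genes are switched on within minutes of neuronal firing. Of the 15, 14 had a positive and 1 a negative log2 fold change, and their median was 0.31 against 0.01 over all genes. Several of these genes moved together from mouse to mouse, so the 7 are not independent observations. HSNpt male replicate 10 had the lowest value of the 8 mice at 0 for Nr4a1, Arc, Egr1, Egr2, Npas4 and Dusp1. Nr4a1, an orphan nuclear receptor, was at 91.7 ± 42.9 CPM in the mice at 0 (lowest 27.8, median 84.3, highest 147.2), 66.2 ± 33.3 CPM in HDID1 (20.2, 70.7 and 142.4) and 51.8 ± 33.2 CPM in the mice with reads (21.1, 43.4 and 191.8). Of the mice at 0, 7 of 8 exceeded the median of the mice with reads, although the highest value of all was in a mouse with reads. Its log2 fold change was 0.70 ± 0.26 (SE; edgeR, unadjusted p = 0.0099, adjusted p = 0.998).

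The other members at an unadjusted p under 0.05 were Egr2 with a log2 fold change of 0.62, Arc with 0.55, Npas4 with 0.46, Egr1 with 0.42, Dusp1 with 0.34 and Jun with -0.24, named after their values were seen. Arc, which traffics AMPA receptors from the synapse, averaged 128.1 ± 60.2 CPM in the mice at 0, 97.0 ± 47.3 CPM in HDID1 and 80.7 ± 40.1 CPM in the mice with reads. Jun went the other way, with 8 of 8 mice at 0 below the median of the mice with reads, at 30.4 ± 3.15 CPM in the mice at 0, 40.3 ± 10.8 CPM in HDID1 and 36.3 ± 6.20 CPM in the mice with reads. Fos had 0.22 and did not reach an unadjusted p of 0.05. The hour at which each mouse was killed is not given, and its part in these values was not tested.

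No partner or relative of Ica1l passed the test. Of 8 tested genes of the ICA69 family and its partners, Pick1 had the smallest p, at 45.3 ± 2.73 CPM in the mice at 0, 50.5 ± 6.91 CPM in HDID1 and 49.3 ± 4.72 CPM in the mice with reads (log2 fold change -0.11 ± 0.05, edgeR, unadjusted p = 0.0496). Among 40 BAR domain genes, 20 were on each side of 0 and Amph, the amphiphysin gene, led with -0.24 ± 0.11. Among 21 AMPA receptor genes, 7 were positive and 14 negative, led by the auxiliary subunit Shisa6 with -0.61 ± 0.30. Dense core vesicle genes had a median of -0.01, led by the tethering subunit Vps52 with -0.11 ± 0.06, class I antigen presentation genes a median of -0.16, led by the peptide transporter Tap2 with -0.27 ± 0.14, and dopamine signalling genes a median of 0.09, led by the receptor Drd1a with 0.33 ± 0.21.

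No marker of the dissected tissue passed the test, and some marker lists had nearly all members on one side of 0. All 14 shared markers of spiny neurons, the output cells of the striatum, had positive log2 fold changes with a median of 0.27, led by the transcription factor Foxp1 with 0.32 ± 0.18. Drd2 led the D2 markers with 0.26 ± 0.22 and Ebf1 the D1 markers with 0.26 ± 0.15. All 8 markers of septum and thalamus were negative with a median of -0.89, led by Tcf7l2 with -1.17 ± 0.51, and so were all 8 of choroid plexus (median -1.11, led by Kl with -1.12 ± 0.65), all 6 of ependymal cells (median -0.64, led by Enkur with -0.61 ± 0.38) and all 9 of cortical neurons (median -0.31, led by Rorb with -0.24 ± 0.16). Of the hypothalamic markers 7 of 8 were negative, led by Oxt, the oxytocin gene, with -2.51 ± 1.15.

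Summed marker levels overlapped between the classes, and no marker score passed its test. The spiny neuron sum ran from 8134 to 16410 CPM in the mice at 0 and from 2944 to 16860 CPM in the mice with reads. The septum and thalamus sum ran from 115.2 to 470.3 CPM in the mice at 0 and from 98.3 to 1623 CPM in the mice with reads. The choroid plexus sum ran from 26.1 to 2409 CPM in the mice at 0 and from 18.0 to 5539 CPM in the mice with reads. The cortical sum ran from 132.9 to 1767 CPM in the mice at 0 and from 210 to 2541 CPM in the mice with reads. The cortical score had a higher median in the mice at 0, 0.0596 against 0.0230 in the mice with reads, with 5 of 8 above that median, although its mean was lower, -0.348 in the mice at 0 against 0.107 in the mice with reads. No list had its genes at 0 in all libraries. In bulk tissue fewer cells of a type and less RNA per cell cannot be told apart. Of 18 library measures (depth, genes detected and 16 marker scores on the log2 scale), none passed an exact permutation test, two-sided, after adjustment. The smallest raw p was 0.0694, for an astrocyte score 0.129 lower in the mice at 0, and the smallest adjusted p was 0.551. Gfap, the astrocyte filament protein, had a log2 fold change of -0.63 ± 0.27. The part of dissection in the gene values was not tested beyond a fit with 6 marker scores as covariates, in which 0 genes passed as well and 699 had an unadjusted p under 0.05.

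The remaining marker lists other than blood had medians closer to 0. Oligodendrocytes had -0.06 (lead Ugt8a, -0.13 ± 0.16), their precursors -0.08 (Neu4, -0.15 ± 0.13), astrocytes -0.07, microglia 0.05 (Fcrls, 0.47 ± 0.29), endothelial cells 0.07 (Slco1a4, 0.26 ± 0.13), mural cells 0.00 (Rgs5, 0.08 ± 0.11) and striatal interneurons 0.07 (Calb2, -0.69 ± 0.48). All 9 endothelial markers had positive log2 fold changes, and all 5 tested markers of oligodendrocyte precursors had negative ones. Fcrls had 0.25 without HSNpt female replicate 2, Slco1a4 0.15 without male replicate 17 and Calb2 -0.44 without female replicate 13. Blood markers had a median of 0.36, with 4 of 5 positive, led by Hbb-bs with 0.78 ± 0.33. Here HSNpt female replicate 2, a mouse at 0, was far above the rest, and the value was -0.085 without it.

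The blood ethanol reading at the end of drinking overlapped between the classes. The reading, whose unit the headers do not give, was 0.694 ± 0.742 in the 8 mice at 0 and 0.461 ± 0.555 in the 26 with reads, a difference of 0.233 (exact permutation test, two-sided, p = 0.345). It was 0 in 3 of 8 mice at 0 and in 13 of 26 mice with reads. In females the difference was -0.080 (0.431 in 5 mice at 0, 0.512 in 12 with reads, exact permutation p = 0.789), and in males it was 0.714 (1.13 in 3 mice at 0, 0.418 in 14 with reads, exact permutation p = 0.0559). Whether the sexes differ was not tested. The 3 males at 0 include HSNpt male replicate 10, whose Xist and Y counts go against its label. Its reading was 0, while male replicates 5 and 17 had 1.701 and 1.693. Without replicate 10 the difference over both sexes was 0.332 (0.793 in 7 mice at 0, 0.461 in 26 with reads, exact permutation p = 0.2).

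At the level of single exons, again none passed on counts. Of 124258 exons tested with edgeR, 0 (0%) passed and 2881 (2.32%) had an unadjusted p under 0.05. Within 1 Mb of Ica1l exon 4 it was 8 of 177 exons (4.52%), and these lay in Carf, Cyp20a1, Nop58, Gm973 and Tmem237. The exon of smallest p was in Stk26, a germinal centre kinase gene on the X chromosome. It was at 1.73 ± 0.451 CPM in the mice at 0 (0.887 to 2.48), 0.971 ± 0.531 CPM in HDID1 and 0.885 ± 0.320 CPM in the mice with reads (0.312 to 1.66), with a log2 fold change of 0.93 ± 0.17 (SE; edgeR, unadjusted p = 4.92e-06, adjusted p = 0.612). Next came exons of Xist, of Sertm1 with -0.98 ± 0.21, of Hook3 with -1.43 ± 0.34 and of Lamb3 with 1.03 ± 0.25.

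The same Stk26 exon was also the one whose level across the 34 HSNpt libraries was most like that of Ica1l exon 4, in the opposite sense (Pearson r of -0.67 on the log2 scale). After it came exons of Aifm3 (0.62), Nelfcd (0.62), Bbs7 (-0.62), Polr3g (-0.61), Hspa1a (0.61), Itpkc (-0.60), Gm13886 (0.59), Neil1 (0.59) and Rnf144a (-0.59). Of all 124258 exons 6 had an absolute r above 0.6. None of the 10 lies on chromosome 1. The points share depth and library, and the ranking is a description.

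Beyond gene and exon counts, the share of an exon within its gene was tested, and here 12 genes passed. Of 12249 genes with at least 2 tested exons, 12 (0.098%) had an adjusted p under 0.05 by edgeR's diffSpliceDGE with Simes' method, and 122 (0.996%) an unadjusted one. None of the 12 is within 5 Mb of Ica1l exon 4, where 0 of 52 genes had an unadjusted p under 0.05. In all 12 the leading exon made up a smaller share of its gene in the mice at 0, while no gene total passed the gene test. The totals' log2 fold changes ran from -0.08 for Gnl3l to 0.23 for Atp2b1, with Ric3 at 76.5 CPM in the mice at 0 and 75.3 CPM in those with reads and Nsg2 at 773 CPM in the mice at 0 and 767.1 CPM in those with reads.

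Ric3 encodes a chaperone of nicotinic acetylcholine receptors, and its exon at chr7:109083163-109083331 is a first exon of a coding transcript. It had 0.170 ± 0.0898 CPM in the mice at 0 (lowest 0.0453, median 0.137, highest 0.299), 0.507 ± 0.621 CPM in HDID1 (0, 0.234 and 2.24) and 0.953 ± 0.780 CPM in the mice with reads (0.0623, 0.485 and 2.32). All 8 mice at 0 lay below the median of the mice with reads, and 18 of 26 mice with reads and 13 of 35 HDID1 mice lay above their highest value. Its usage log2 fold change was -2.51 (edgeR, adjusted p = 1.96e-06). Nsg2 encodes a neuronal endosomal protein, and its exon at chr11:32031770-32033414 is the last of a coding transcript. It had 0.636 ± 0.314 CPM in the mice at 0 (0.0598, 0.693 and 0.950), 1.27 ± 1.73 CPM in HDID1 (0.412, 0.765 and 7.27) and 4.00 ± 3.48 CPM in the mice with reads (0.422, 4.15 and 13.8), with a usage log2 fold change of -2.59 (adjusted p = 2.06e-06).

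The same shape held for Rab5c, a GTPase of early endosomes. A first exon had 0.328 ± 0.839 CPM in the mice at 0 (0, 0.0299 and 2.40), 1.81 ± 1.64 CPM in HDID1 (0, 2.41 and 6.33) and 2.37 ± 1.77 CPM in the mice with reads (0, 3.31 and 4.82). HSNpt female replicate 1 alone carried the high value among the mice at 0, and the usage log2 fold change, -2.73, was -5.85 without it. HDID1 mice, which are all at 0 on Ica1l exon 4, held both low and high values of this exon.

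The other 9 were Ptbp2, a neuronal splicing repressor (usage log2 fold change -1.98), Thrap3, a splicing-associated protein (-1.78), Fip1l1, a polyadenylation factor (-1.49), Ist1, an ESCRT-III regulator (-1.33), Gnl3l, a nucleolar GTPase (-1.46), Fbxl5, the iron-sensing ubiquitin ligase adaptor (-1.61), Mapk6, the kinase ERK3 (-1.41), Atp2b1, a plasma membrane calcium pump (-1.12), and Mzt1, a gamma-tubulin complex protein (-2.51). For Thrap3 the value was -3.34 without HSNpt male replicate 17. Within the mice with reads these exons spread over a wide range that overlapped the mice at 0. For Fip1l1, Ist1 and Atp2b1 the lowest mouse at 0 lay below that range. For the others the range took in all mice at 0. For Mzt1 the median was 0.254 CPM in the mice at 0 and 0.237 CPM in those with reads. Its call came from 9 of 26 mice above the highest mouse at 0, 0.370 CPM. For Ptbp2 4 mice with reads were below the lowest mouse at 0. The widest gap on the log axis between neighbouring mice with reads was then sought for each exon. For Ric3, Nsg2, Ptbp2, Fip1l1, Ist1, Fbxl5 and Mzt1 it left 11 to 20 mice with reads on the low side and 6 to 15 on the high side, and all 8 mice at 0 lay on the low side. For Rab5c and Thrap3 7 of 8 mice at 0 lay on the low side, and for Atp2b1 6 of 8. For Gnl3l and Mapk6 the gap set off a single mouse with reads at 0 CPM. The exons were called on these same values, so the side on which the mice at 0 lie is a description, not further support.

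**Figure D5:**
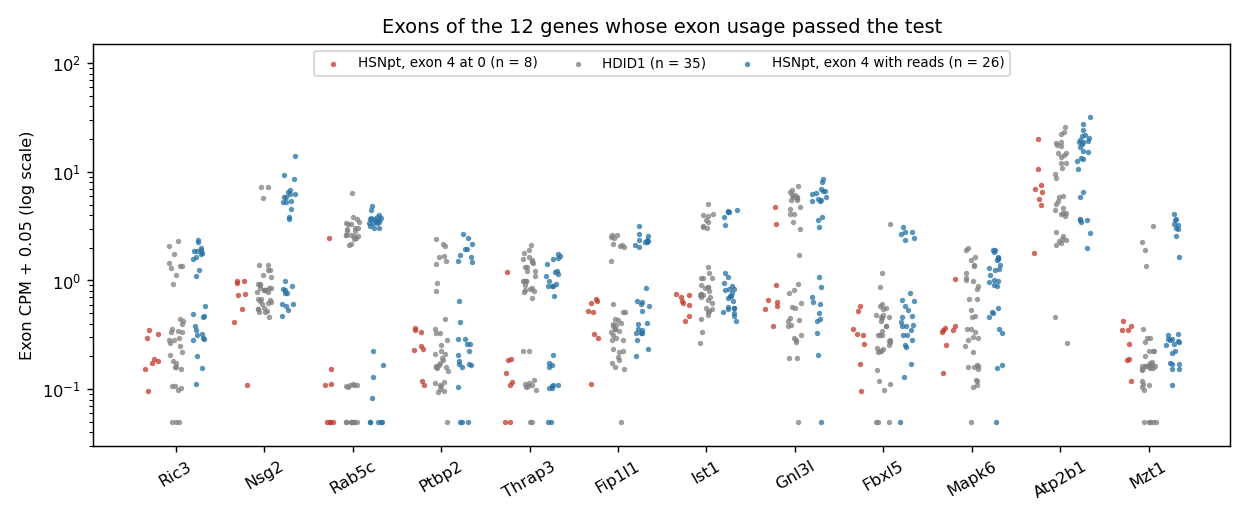
CPM of the leading exon of the 12 genes called by exon usage, 1 point per mouse (log axis, 0.05 added), with HSNpt mice at 0 in red, HDID1 mice in grey and HSNpt mice with reads in blue. Red points sit low for most genes, while blue and grey points fall both low and high for each gene.

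By GENCODE, 5 of the 12 exons match or overlap a first exon of a coding transcript (Ric3, Rab5c, Fbxl5, Mapk6 and Mzt1), and 4 are under 50 bases long (Ptbp2, Fip1l1, Ist1 and Atp2b1). The levels of the 12 exons were weakly related to each other, with a median pairwise r of 0.18 over the 34 HSNpt libraries, 0.07 over the 35 HDID1 libraries and 0.11 over the 26 mice with reads. The call depends on the test. The usage test pools the spread over the exons of a gene, and the exon count fit does not. In the exon count fit none of the 12 exons passed (unadjusted p from 0.000217 to 0.0237, adjusted p = 1 for each). By the gene-level F test 5 genes passed, 4 of them among the 12 (Ric3, Nsg2, Rab5c and Ist1). With the lab number as a block, 9 genes passed and 1 of them, Rab5c, was among the 12. The other 11 kept a negative usage log2 fold change, from -0.72 for Fip1l1 to -2.92 for Mzt1, with adjusted p-values of 0.0597 for Ptbp2, 0.203 for Mzt1, 0.304 for Thrap3, 0.619 for Ric3 and 1 for the others in edgeR's test. That fit was added after the data were seen, and in it the class difference rests on the 4 numbers that hold both classes. With each mouse at 0 left out in turn, or a few chosen libraries, 8 of the 12 passed each time (Fbxl5, Fip1l1, Ist1, Nsg2, Ptbp2, Rab5c, Ric3 and Thrap3). Apart from HSNpt male replicate 1, no mouse with reads was left out singly in the usage test.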

How the data were processed

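Read counts per gene and per exon were taken as the authors deposited them, as whole-number counts with no normalization, 1 column per mouse. The submitters' processing notes name build mm10 and the tools STAR, bedtools, edgeR, CASAVA and FastQC. Their versions, and any strand setting in counting, are not given here in the sources used. All 34 HSNpt libraries entered the tests and the 35 HDID1 libraries are shown beside them. Replicate numbers are names only. The p-values of the gene count, exon count and per-mouse tests measure the spread between these mice. Those of exon usage rest on a spread pooled over the exons of a gene, where exons of the same mice are not independent.

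Genes and exons were filtered with filterByExpr, scaled by TMM and tested with edgeR 4.0.16 in R 4.3.3 (quasi-likelihood F test, sex as covariate, Benjamini-Hochberg adjustment, threshold 0.05). The log2 fold change is the mice at 0 minus the mice with reads. Exon usage was tested with diffSpliceDGE, where an exon's value is relative to its gene's total. DESeq2 1.42.0 served as an alternative. Scripts were tested on simulated data. Levels are CPM on TMM-scaled sizes over all 69 libraries. An offset of 0.5 counts entered the correlations with the Ica1l exon. For the correlations among the exons called by usage the offset was 0.05 CPM. A prior count of 2 entered the marker scores. Single values per mouse were compared by exact permutation in Python 3.11.15, adjusted over 18 measures.

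The genes named are all tested genes within 1 Mb, the 5 of smallest p where fewer than 5 passed, the leading member of each of 23 lists, the 10 exons most like Ica1l exon 4, and the 5 leading genes for exon counts and usage. A few genes taken by this rule are not reported here. The members and lists were chosen with earlier results of these data known. Exon and gene positions are those of the deposited tables and GENCODE M21 on mm10. Alternatives were other scaling, filters, covariates, rule thresholds, each sex alone and left-out libraries. Those on left-out groups of libraries, the single left-out libraries for exons, and the block on lab numbers were added after seeing the data.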

Additional observations from a re-analysis of the deposited data

Results flagged for a closer look

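Among the 8 HSNpt mice at 0 on Ica1l exon 4, 99 sets of values were screened for a lowest or highest mouse far from the other 7, and 11 had one. For normally distributed values chance gives this in about 1 in 20 sets. Some sets here are skewed or near 0, where that rate need not hold, and the sets are not independent. HSNpt female replicate 2 was the distant mouse in 6 of the 11, each time as the highest. It had 64.4 CPM of Nop58 (others 42.5 to 52.3) and 69.04 CPM of Wdr12 (43.6 to 51.1), both within 1 Mb of the exon. It also had 133.6 CPM of Calb2 (7.23 to 52.1), 131.3 CPM of Hbb-bs (9.70 to 29.1), 30.2 CPM of Oxt (0 to 7.39) and 0.987 CPM on the Mapk6 exon (0.0906 to 0.333).

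HSNpt male replicate 17 was highest in 3 sets, with 221 CPM of Amph (others 140.5 to 171.6), 71.4 CPM of Raph1 (23.4 to 40.6) and 1.15 CPM on the Thrap3 exon (0 to 0.142). HSNpt female replicate 1 had 2.40 CPM on the Rab5c exon (0 to 0.104). HSNpt female replicate 12 had the lowest Fam117b, 55.9 CPM (73.4 to 84.0).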

How the results depend on the processing

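Replicate numbers gave no pairing, because they were given in sample order, and the classes are unequal sets of single mice. The lab numbers in the headers, whose meaning is not stated, allowed a block in place of sex, added after seeing the data. With it 0 genes and 0 exon counts passed, 180 genes had an unadjusted p under 0.05, and 9 genes passed by exon usage, 1 of them shared with the 12. The count of 0 genes was 2 by the DESeq2 Wald test (Xist and Gm27520), 1 without a filter (Ugt2a1) and 1 with all 69 libraries in the fit (Xist), and stayed 0 with any HSNpt library left out. Genes at an unadjusted p under 0.05, 591 in all, were 1506 without a filter, 1931 with the exon's share of Ica1l as a continuous term, 1488 in males only, and 369 to 974 with each library left out (974 and 936 without HSNpt female replicates 12 and 2, 369 and 372 without female replicate 5 and male replicate 5). Exon counts stayed at 0 calls in every alternative, with 4575 and 4590 exons at an unadjusted p under 0.05 without female replicates 2 and 12. Exon usage gave 5 calls by the F test and 10 to 19 with each mouse at 0 left out.

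Of 45 named genes 25 kept the direction of their log2 fold change in all alternatives. In females only the value was -0.0835 for Bmpr2, -0.0349 for Carf, -0.0640 for Fam117b, -0.207 for Nbeal1, 0.0657 for Neu4, -0.0571 for Rgs5, 0.0352 for Ugt8a and -0.0349 for Xist, and the blood ethanol difference was -0.080. In males only it was 0.0081 for Eif4a-ps4, 0.0973 for Gm29017, -0.00959 for Gm973, -0.0708 for Hbb-bs, -0.0196 for Nop58, 0.213 for Raph1 and -0.0543 for Wdr12. With marker scores as covariates it was -0.0501 for Drd2, 0.105 for Enkur, 0.138 for Raph1 and -0.0365 for Rgs5. With the exon's share as a continuous term it was 0.0672 for Gm29017, -0.0176 for Nop58, 0.0205 for Ugt8a and -0.0621 for Wdr12, and with its log2 CPM -0.0018 for Nop58 and -0.0032 for Wdr12. With the lab number block it was -0.0971 for Drd2, -0.0860 for Ebf1, 0.529 for Eif4a-ps4, -0.0550 for Fam117b, 0.127 for G730003C15Rik, -0.0729 for Gm973, 0.0480 for Mpp4, -0.0487 for Nbeal1, 0.113 for Raph1, -0.0303 for Rgs5, -1.167 for Xist and -0.96 for the Xist exon. Without a sex term Eif4a-ps4 had 0.0613. Without HSNpt male replicate 10, Eif4a-ps4 had 0.116 and Raph1 0.0044. Without that library and female replicates 14 and 15, Eif4a-ps4 had 0.128, Gm973 -0.0269, Xist -0.22 and the Xist exon -0.14. Without the 2 libraries low in spiny neuron markers Raph1 had 0.0445. In 20 of the 45, leaving out 1 library shrank the value by over 1.5 times or turned its sign. With each library left out, values ran from -0.20 to 0.12 for Eif4a-ps4, -0.15 to 0.0041 for G730003C15Rik, -0.0852 to 0.951 for Hbb-bs, -0.0320 to 0.0390 for Nop58, -0.190 to 0.0450 for Raph1 and -0.0372 to 0.0581 for Wdr12. None of these genes passed over all 34 HSNpt libraries, and the cause was not tested.

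With 2 to 23 counts on the exon, depth limits the classes themselves: a mouse with few such transcripts can be counted as 0. Leaving out the mouse with 2 counts gave 0 called genes and 14 called by exon usage.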

Other observations

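HDID1 mice lacked a few other exons that HSNpt mice had. In all, 5 exons were at 0 in all 35 HDID1 mice and present in at least 20 HSNpt mice: the Ica1l exon, 1 exon of Fggy on chromosome 4, 2 exons of Gm10478 and 1 of 3110053B16Rik, both on chromosome 12. The other 4 did not follow the Ica1l classes, since the Fggy exon had reads in 4 of the 8 mice at 0 and 18 of the 26 with reads, and the chromosome 12 exons had reads in 5 or 6 of the 8 and in 19 to 22 of the 26.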
